A study of Sus scrofa with 21 samples.

Results

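Interferon response genes were followed in the hearts of newborn and young pigs, with and without a myocardial infarction (MI) made on day 1 after birth. The set was fixed as 40 genes by symbol, and its members were the rows of the deposited count table that carry one of those gene names. Of the 40, 35 were found among the 25880 genes of the table, none of them under more than 1 row, and 33 of the 35 had enough reads to be tested among the 15359 genes that passed the filter on low counts. IFIT3, OAS1, EIF2AK2, XAF1 and GBP1 were matched to no row by name and are not analysed here as members. IRF7 and IRF9 were found but had too few reads to be tested.

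Each of the 21 libraries was made from total RNA of 1 pig heart (Sus scrofa). The 8 groups were naive hearts collected on day 1 (n = 2), day 3 (n = 2), day 7 (n = 3), day 14 (n = 3) and day 28 (n = 3), and MI hearts collected on day 7 (n = 3), day 14 (n = 3) and day 28 (n = 2). In the MI groups the left descending coronary artery had been tied off permanently on day 1, and the tissue was a small piece from the border zone of the ischemic region, matched by the same region in naive hearts. The labels name no strain or genotype, and all pigs came from 1 supplier and were raised by hand on colostrum and milk. The titles call the uninjured hearts naive, whereas the protocol describes age-matched normal animals that had the surgery without the ligation. Which of these applies to each naive pig, the 2 newborn groups included, is not settled by the labels. No MI heart was collected on day 1 or 3, so these days have no injury comparison. Replicate numbers below follow the order of the accessions and are names only.

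Interferons are secreted proteins that cells release when sensors in the cytosol or in endosomes detect viral or misplaced nucleic acid. Type I interferons bind the receptor pair IFNAR1 and IFNAR2, whose kinases JAK1 and TYK2 lead to the assembly of the complex ISGF3, which contains STAT2 and IRF9. This complex binds a promoter sequence named the interferon-stimulated response element (ISRE) and turns on a wide set of antiviral genes. Interferon gamma acts mainly through another element, GAS. In the heart this response is known from viral myocarditis and from macrophages that take up DNA of dying cells after infarction.

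The promoter letters of the members were read from the RefSeq annotation and genome of Sscrofa11.1, the build named in the submitters' processing notes. A promoter window held 250 bases before and 50 bases after the gene's start, and 34 of the 35 members found had one, the exception being IFIT5. The core letters of the ISRE, GAAA followed by any 2 bases and GAAA again, on either strand, were present in 18 of these 34 windows (52.9%) and in 700 of the 19559 windows of all protein-coding genes (3.58%). The GAS letters, TTCNNNGAA, were present in 4 of the 34 (11.8%) and in 1392 of all windows (7.12%). The 2 motifs have different letters but may overlap in a window. A match describes the letters only. Shown here are the 250 bases before the start of the 5 members whose windows hold the ISRE core among the 6 members with the widest range of expression over the libraries. The sixth, MX1 (chr13:204843049-204868927, plus strand), had no match in its window. Each sequence is written 5′ to 3′ along the gene's strand, and capitals mark bases that belong to a match.
ISG15: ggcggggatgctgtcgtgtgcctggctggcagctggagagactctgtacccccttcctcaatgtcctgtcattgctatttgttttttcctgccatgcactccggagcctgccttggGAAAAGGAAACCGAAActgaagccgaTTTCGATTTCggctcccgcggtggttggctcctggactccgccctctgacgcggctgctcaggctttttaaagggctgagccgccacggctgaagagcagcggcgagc
IFI6: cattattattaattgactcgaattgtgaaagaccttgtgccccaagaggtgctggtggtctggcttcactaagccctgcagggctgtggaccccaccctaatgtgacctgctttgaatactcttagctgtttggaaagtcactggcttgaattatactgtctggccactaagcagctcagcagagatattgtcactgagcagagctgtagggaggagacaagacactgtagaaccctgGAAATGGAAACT
RSAD2: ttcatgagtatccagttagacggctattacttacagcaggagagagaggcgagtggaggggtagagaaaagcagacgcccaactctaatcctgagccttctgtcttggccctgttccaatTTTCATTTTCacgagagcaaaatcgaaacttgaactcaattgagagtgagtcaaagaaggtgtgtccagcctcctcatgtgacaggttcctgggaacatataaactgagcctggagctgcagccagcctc
OAS2: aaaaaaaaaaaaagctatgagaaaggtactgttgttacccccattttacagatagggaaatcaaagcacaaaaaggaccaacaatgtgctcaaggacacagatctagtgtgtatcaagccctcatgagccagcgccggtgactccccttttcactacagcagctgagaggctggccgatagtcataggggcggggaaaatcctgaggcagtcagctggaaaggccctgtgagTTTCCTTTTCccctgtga
OASL: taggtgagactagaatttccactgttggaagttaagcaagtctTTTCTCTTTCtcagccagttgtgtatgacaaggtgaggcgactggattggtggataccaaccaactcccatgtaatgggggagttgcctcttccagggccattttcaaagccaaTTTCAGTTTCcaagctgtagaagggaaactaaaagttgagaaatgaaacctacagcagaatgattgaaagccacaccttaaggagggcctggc
The ISG15 sequence is chr6:63362951-63363200 on the plus strand, and its 3 matches begin 134, 128 and 108 bases before the start, the first pair sharing bases. The IFI6 sequence is chr6:84858073-84858322 on the minus strand, with matches that begin 12 and 6 bases before the start, the latter running past it. For RSAD2 the sequence is chr3:128897810-128898059 on the minus strand, with 1 match at 130 bases. OAS2 (chr14:38847698-38847947, minus strand) held 1 match at 18 bases, and OASL (chr14:40917190-40917439, minus strand) held matches at 207 and 93 bases.

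Total counts ran from 37002909 to 95559841 per library, and levels are given as CPM (counts per 1e6 counts) scaled by TMM factors, so that 0 counts allow up to 0.0294 to 0.0811 CPM depending on the library (3 counts, counting error only). Cardiomyocyte markers summed to between 33093 and 87678 CPM in every library, although the marker TNNI3 was listed at 0 counts in all 21. Under 100 CPM of an unnamed gene, ENSSSCG00000035520, set 4 libraries apart from the others: among injured hearts the third of day 7 and the second of day 28, and among naive hearts the third of day 14 and the second of day 28. These libraries are called the second set here, and the labels give no batch for them. MI day 28 replicate 2 also stood apart by its macrophage markers, which summed to 3083 CPM against 64.3 to 502 CPM in the other libraries, and by its lymphocyte markers (157 against 4.1 to 35.4 CPM). These are bulk tissue libraries, in which fewer cells of a type and less RNA per cell cannot be told apart. The labels give 1 pig per library but no litter, and the p-values measure the spread between these libraries.

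No member passed the test by edgeR, DESeq2 or limma's voom in any of the 10 comparisons made. What the members' levels showed was a wide spread between single pigs of the same group, in which the same few hearts were high or low for nearly every member. The within-group standard deviation of log2 CPM had a median of 0.78 over the 33 members and of 0.38 over all genes tested, and 32 of the 33 members lay above the all-gene median. From the lowest to the highest of the 21 libraries the members spanned a median of 3.28 log2 units, and all genes spanned 1.64. The share of a member's sum of squares that lay between the 8 groups had a median of 41.0% (range 21.8% to 57.0%), beside 40.3% for all genes and the 35% that the groups hold of the degrees of freedom.

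**Figure D1:**
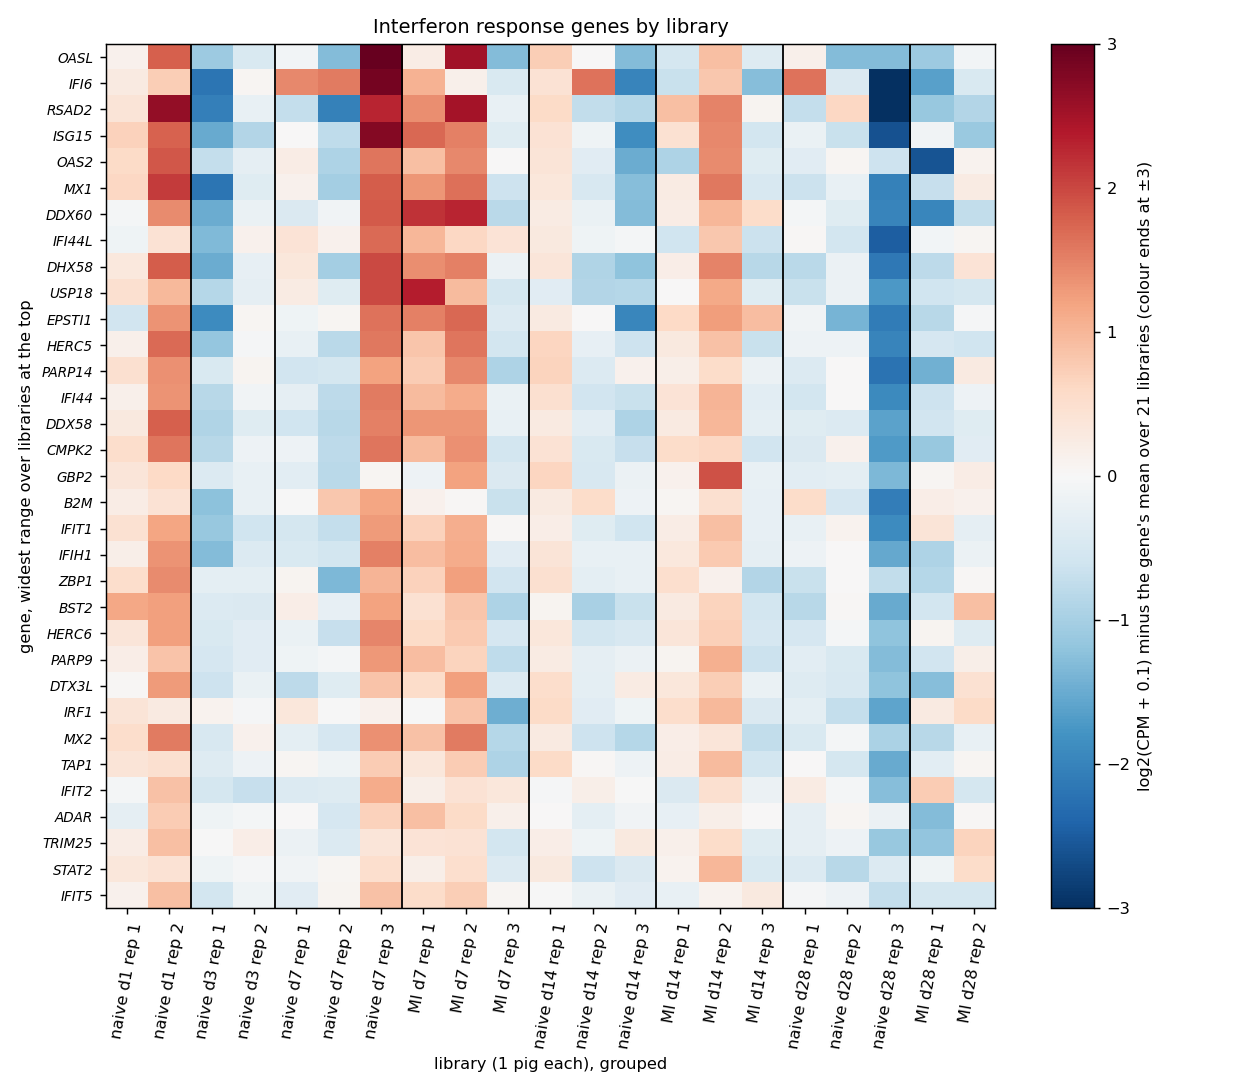
Heat map of the 33 tested members (rows, ordered by range) in the 21 libraries (columns, by group), as log2(CPM + 0.1) minus the gene's mean over the libraries, with colours ending at -3 and 3. Naive day 1 replicate 2 and naive day 7 replicate 3 are above the mean for nearly all genes, and naive day 28 replicate 3 is below it.

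All 33 highest values fell in 5 libraries. Naive day 7 replicate 3 held the highest value of all 21 libraries for 12 members (36.4%, all genes 1.99%) and naive day 1 replicate 2 for 11 (33.3%, all genes 3.84%). The second MI hearts of days 7 and 14 held it for 4 each (12.1%, all genes 1.56% and 3.72%), and MI day 7 replicate 1 for 2 (6.06%, all genes 2.19%). The lowest value lay in naive day 28 replicate 3 for 25 members (75.8%, all genes 8.43%) and in MI day 28 replicate 1 for 4 (12.1%, all genes 15.0%). Naive and injured hearts were thus both among the high ones. At the low end, the members' share in MI day 28 replicate 1 lay below that of all genes.

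In several groups 1 pig was the highest or the lowest for nearly every member. Naive day 7 replicate 3 was the highest of its 3 hearts for 32 of 33 members (97.0%), while it was the highest for 24.9% of all genes tested. MI day 14 replicate 2 was the highest of 3 for 31 members (93.9%, all genes 33.2%), and naive day 1 replicate 2 was the higher of 2 for 32 (97.0%, all genes 50.3%). At the other end, MI day 7 replicate 3 was the lowest of 3 for 32 members (97.0%, all genes 42.8%) and naive day 28 replicate 3 for 30 (90.9%, all genes 40.8%). The members' median deviation from their own mean over the libraries was 1.46 log2 units in naive day 7 replicate 3, 1.29 in naive day 1 replicate 2 and -1.62 in naive day 28 replicate 3. These counts describe single pigs and were not tested.

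The medians of the roles differed in some of these hearts, for roles of as few as 2 genes. In naive day 7 replicate 3 the median deviation was 1.52 log2 units over the 5 sensors, 1.61 over the 15 antiviral effectors and 1.38 over the 8 genes of ISG15, ubiquitin and ADP-ribosylation. It was 0.77 over the 3 genes of guanylate binding and antigen presentation and 0.32 over the transcription factors IRF1 and STAT2. Single genes of different roles overlapped: those 3 genes ran from 0.07 (GBP2) to 1.18 (B2M), and the 8 genes with ISG15 from 0.37 to 2.74. In MI day 14 replicate 2 the 5 roles lay closer together, between 0.81 and 1.00 log2 units. In MI day 7 replicate 1 the sensors had a median deviation of 1.33, the transcription factors 0.08 and the antigen presentation group 0.13.

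Markers of other cells were set beside these hearts. In naive day 7 replicate 3 the 11 macrophage markers summed to 382 CPM and the 11 lymphocyte markers to 16.3 CPM, and in naive day 1 replicate 2 to 458 and 21.7 CPM. Leaving aside MI day 28 replicate 2, macrophage sums ran up to 502 CPM and lymphocyte sums up to 35.4 CPM. Both of these maxima were those of MI day 14 replicate 2, another of the high hearts. MI day 7 replicate 2, also high for the members, had a macrophage sum of 223 CPM, below those of the naive hearts just named. Its lymphocyte sum was 16.9 CPM. MI day 14 replicate 2 also had a fibroblast marker sum of 6758 CPM, below only the 7867 CPM of MI day 28 replicate 2. Its neutrophil marker sum of 24.4 CPM lay below the 38.5 CPM of MI day 28 replicate 2 and the 29.9 CPM of MI day 7 replicate 3. The latter was the lowest of its group for 32 of 33 members. Naive day 28 replicate 3, the low heart, had the lowest macrophage and lymphocyte sums of all 21 libraries (64.3 and 4.1 CPM). Its endothelial sum of 670 CPM was also the lowest, while its fibroblast sum of 1510 CPM was not. Of the 7 markers fixed for plasmacytoid dendritic cells, strong producers of type I interferon, 5 were found, and they summed to 92.1 CPM in naive day 7 replicate 3 and 132 CPM in naive day 1 replicate 2, within the 66.9 to 165 CPM over all libraries. TCF4, which other cells also make, gave most of that sum. No macrophage marker was at 0 in any library, and at most 2 of the lymphocyte markers were. The part of cell makeup in the members' levels was not tested.

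**Figure D2:**
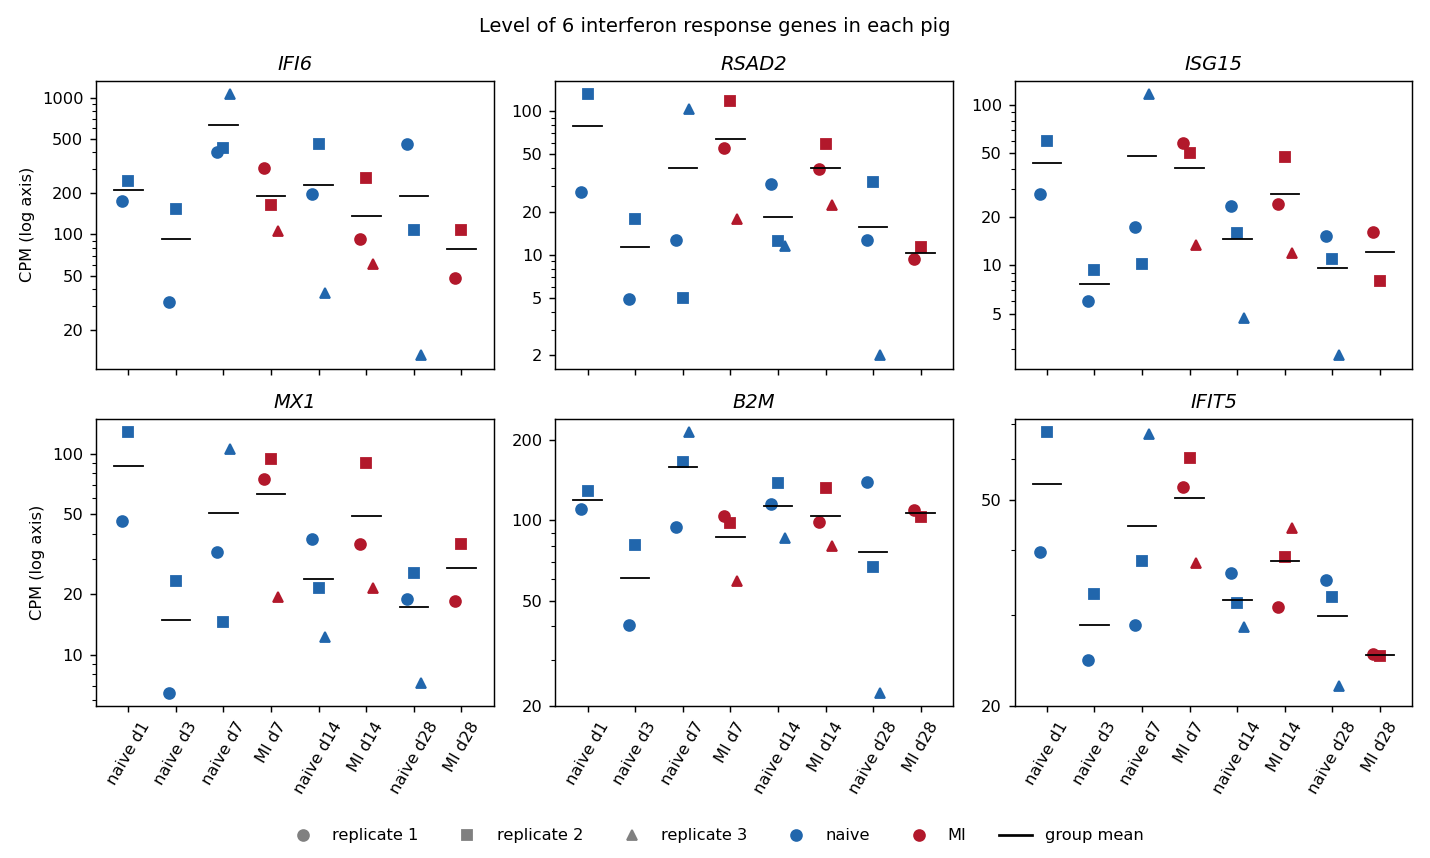
CPM (log axis) of IFI6, RSAD2, ISG15, MX1, B2M and IFIT5 in each heart, by group in order of age, with naive in blue, MI in red, a symbol for each replicate number and a black line at the group mean. Naive day 7 replicate 3 and naive day 1 replicate 2 are the highest of their groups for all 6 genes, whereas the order in other groups differs between genes, and the span is 82.6-fold for IFI6 but 3.09-fold for IFIT5.

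The sensors detect viral RNA or DNA. IFIH1 (MDA5) and DDX58 (RIG-I) bind double-stranded RNA in the cytosol, and DHX58 (LGP2) regulates both. DDX58 was at 31.5 and 88.5 CPM on day 1, 13.6 and 20.03 on day 3, 16.9, 14.4 and 73.5 in naive hearts of day 7, and 64.7, 64.9 and 22.1 in MI hearts of day 7. It was at 30.7, 20.5 and 13.4 CPM in naive and 31.1, 51.3 and 20.8 in MI hearts of day 14, and at 19.9, 19.2 and 8.33 in naive and 17.1 and 19.9 in MI hearts of day 28. A pair of MI hearts was high on day 7, but so was 1 naive heart, and naive and MI values overlapped on all 3 days. IFIH1 ran from 5.55 CPM in naive day 28 replicate 3 to 46.6 CPM in naive day 7 replicate 3. DDX60, a helicase that aids RNA sensing, reached 42.5 and 46.1 CPM in MI day 7 replicates 1 and 2 but 5.32 in replicate 3, and 6.95, 8.68 and 33.6 CPM in the naive hearts of that day. ZBP1, a sensor of Z-form nucleic acid that can trigger necroptosis, ran from 2.03 to 14.3 CPM.

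Of the transcription factors, STAT2 is a subunit of ISGF3, and IRF1 drives interferon and antigen presentation genes. STAT2 was among the members with the narrowest range, from 7.33 CPM in naive day 28 replicate 2 to 26.4 CPM in MI day 14 replicate 2. IRF1 was nearly level in newborn hearts, at 24.2 and 22.5 CPM on day 1 and 20.2 and 18.1 on day 3. IRF9, the DNA-binding subunit of ISGF3, reached at most 0.123 CPM, and IRF7, which amplifies interferon production, at most 0.0466 CPM. Over all 21 libraries IRF7 had 13 reads and IRF9 84, and no difference was detectable for them at these counts. Whether such low values reflect the gene models that were counted, as may be so for TNNI3 at 0 counts, was not tested.

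Among the antiviral effectors, IFI6 is a small membrane protein that blocks formation of viral replication sites and dampens apoptosis. It had the highest level per length of all members with a RefSeq length, a mean of 302 CPM per kilobase of exon. The next were B2M at 62.0, BST2 at 52.5 and ISG15 at 42.9 CPM per kilobase. IFI6 was at 176 and 247 CPM on day 1, 32.1 and 153 on day 3, and 401, 432 and 1070.2 in naive against 305, 163 and 107 in MI hearts of day 7. On day 14 it was at 199, 457 and 37.2 CPM in naive and 92.1, 258 and 60.7 in MI hearts, and on day 28 at 458, 108 and 13.0 in naive and 47.8 and 108 in MI hearts. The naive hearts of day 7 all lay above every newborn heart and above the MI hearts of that day. How many of all genes separate in this way was not counted. Naive values of days 14 and 28 spread from the lowest of all to over 400 CPM.

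RSAD2 (viperin), which makes a chain-terminating nucleotide, lies beside CMPK2 on chromosome 3. Its level was 27.5 and 131 CPM on day 1, 4.97 and 17.8 on day 3, 12.7, 5.02 and 103 in naive and 55.1, 118 and 17.8 in MI hearts of day 7. It was 31.2, 12.5 and 11.6 CPM in naive and 39.3, 59.2 and 22.1 in MI hearts of day 14, and 12.7, 32.3 and 2.0 in naive and 9.38 and 11.4 in MI hearts of day 28. The highest and the lowest heart differed 65.7-fold and were both naive, and naive and MI values overlapped on each day. CMPK2, a mitochondrial nucleotide kinase, spanned 5.05 to 50.9 CPM with the same hearts at the ends.

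MX1 and MX2 are neighbouring genes on chromosome 13 for dynamin-like GTPases that trap viral particles. MX1 was at 46.2 and 128 CPM on day 1 and 6.44 and 23.3 on day 3. In hearts of day 7 it was at 32.5, 14.6 and 105 CPM in naive and 74.4, 94.0 and 19.4 in MI, on day 14 at 37.7, 21.5 and 12.2 against 35.5, 89.8 and 21.4, and on day 28 at 19.0, 25.6 and 7.26 against 18.4 and 35.5. The values of the newborn days did not overlap, but how many of all genes separate 2 from 2 hearts was not counted. Those of naive and MI hearts overlapped on each later day. MX2 ranged from 25.02 to 141 CPM, and MI day 7 replicate 2 and naive day 1 replicate 2 were its highest hearts.

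OAS2 and OASL belong to the 2′-5′ oligoadenylate synthetase family, which activates RNase L, although OASL lacks that enzyme activity and acts on RIG-I. OAS2 reached 215 CPM in naive day 1 replicate 2 and was lowest, at 9.82 CPM, in MI day 28 replicate 1, whose group partner had 63.8 CPM. OASL was close to the detection limit. It was highest in naive day 7 replicate 3 at 3.34 CPM, followed by 1.31 CPM in MI day 7 replicate 2 and 0.764 CPM in naive day 1 replicate 2, and lay at or under 0.362 CPM elsewhere. Its counts were 0 in 5 hearts, which are the second naive and the third MI heart of day 7, the third naive one of day 14 and naive day 28 replicates 2 and 3, and these allow up to 0.0742, 0.0396, 0.0675, 0.0714 and 0.0508 CPM.

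The IFIT proteins bind viral RNA ends and stop their translation. IFIT1 spanned 13.6 to 123 CPM, IFIT2 5.79 to 31.0 CPM and IFIT5 21.9 to 67.7 CPM, all 3 lowest in naive day 28 replicate 3. IFIT5 had the narrowest range of all 33 members, yet its highest hearts were naive day 1 replicate 2 and naive day 7 replicate 3 (67.0 CPM), as for the wide-ranging members. ADAR, which edits adenosine in double-stranded RNA and has a constitutive promoter beside its interferon-driven one, also had a narrow range (9.54 to 44.0 CPM). BST2 (tetherin), which holds budding virions at the membrane, was at 54.4 and 57.4 CPM on day 1 and at 18.4 and 18.1 CPM on day 3. Both pigs of each newborn day were close for BST2, unlike for RSAD2 or MX1. EPSTI1 ran from 1.69 to 25.2 CPM, IFI44 from 3.93 to 44.5 CPM and its neighbour IFI44L from 7.42 to 136 CPM.

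ISG15 is a ubiquitin-like protein that is joined to other proteins by HERC ligases and removed by USP18, which also blocks the type I receptor. ISG15 (ENSSSCG00000040575, chr6:63363201-63364211, plus strand) was at 28.0 and 59.5 CPM on day 1, 5.98 and 9.33 on day 3, 17.5, 10.2 and 117 in naive and 57.6, 49.9 and 13.4 in MI hearts of day 7. It was at 23.4, 15.9 and 4.68 CPM in naive and 24.0, 47.2 and 11.9 in MI hearts of day 14, and at 15.2, 10.98 and 2.74 in naive and 16.2 and 7.94 in MI hearts of day 28. Day 1 and day 3 did not overlap, although the share of all genes without overlap between 2 and 2 hearts was not counted. Every naive group overlapped its MI group. USP18 had its maximum, 39.2 CPM, in MI day 7 replicate 1, against 14.8 and 5.19 CPM in the other MI hearts of that day and 8.95, 5.84 and 30.1 CPM in the naive ones. HERC5 (3.32 to 43.5 CPM) and HERC6 (17.8 to 113 CPM) lie side by side on chromosome 8. TRIM25, the ubiquitin ligase that activates RIG-I, had a narrow range of 2.83 to 12.3 CPM. PARP14, PARP9 and DTX3L, neighbours on chromosome 13 that act in ADP-ribosylation, spanned 3.40 to 44.4, 4.22 to 26.1 and 2.14 to 13.1 CPM.

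Of the last group, TAP1 is a subunit of the peptide transporter of antigen presentation, B2M is the light chain of MHC class I and GBP2 is a guanylate-binding GTPase. TAP1 ranged from 12.7 to 70.0 CPM, and its maximum lay in MI day 14 replicate 2. B2M was at 110.5 and 129 CPM on day 1, 40.5 and 80.7 on day 3, 94.3, 166 and 215 in naive and 104, 97.5 and 59.2 in MI hearts of day 7. It was at 115, 139 and 85.7 CPM in naive and 98.6, 133 and 80.2 in MI hearts of day 14, and at 139.5, 66.6 and 22.5 in naive and 109.6 and 103 in MI hearts of day 28. The groups overlapped for B2M on each of these days. GBP2 was at 7.44, 19.2 and 6.12 CPM in MI hearts of day 7, 9.17, 31.5 and 7.09 on day 14 and 8.61 and 9.80 on day 28, against 6.65, 4.72 and 8.73, then 13.0, 5.94 and 7.38, and then 6.61, 6.72 and 3.22 CPM in naive hearts. A single MI heart stood out on day 7 and another on day 14, and on day 28 both MI hearts lay above the 3 naive ones. How many of all genes separate 2 from 3 hearts in this way was not counted.

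Reads of opposite-strand neighbours could enter several of these values, since the strand setting of the counting is not given in the sources used here. In the RefSeq annotation DDX58 overlaps ACO1 in this way, IRF1 overlaps SLC22A5, STAT2 overlaps IL23A, ADAR overlaps CHRNB2, IFIT1 and IFIT2 overlap LIPA, ISG15 overlaps LOC110261384, and DTX3L overlaps PARP9. IFIT, MX and OAS genes are also families of related sequence, and how reads shared by relatives were counted is not given. A pair of rows without a name in the deposited table, matched to EIF2AK2 and GBP1 through the reference gene names after the table had been seen, are no members. EIF2AK2 (PKR) was highest in MI day 7 replicate 1 at 86.7 CPM and naive day 7 replicate 3 at 72.1 CPM, and GBP1 in MI day 14 replicate 2 at 103 CPM. Neither was called in any comparison.

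Injured and naive hearts were compared at each age with edgeR's two-sided quasi-likelihood test, p-values being adjusted by Benjamini-Hochberg over all 15359 genes, and an adjusted p under 0.05 as the call. On day 7, 6 days after the injury, 0 of 33 members were called, as were 0% of all genes tested, and 0 members had an unadjusted p under 0.05. DESeq2 and limma's voom also called 0 members, with 0 and 2 at an unadjusted p under 0.05, while they called 263 and 2040 of all genes. The log2 fold changes of MI against naive were above 0 for 22 members and below 0 for 11, with a median of 0.19 beside 0.03 for all genes. The member with the lowest p was B2M, at 86.7 ± 24.1 CPM in MI and 158 ± 60.8 CPM in naive hearts (SD, n = 3 each). Its log2 fold change was -0.87 (SE 0.47, 95% interval -1.87 to 0.13, edgeR adjusted p = 0.465). IFI6 had -1.73 (SE 1.00, interval -3.85 to 0.39, edgeR adjusted p = 0.503), with groups that did not overlap, and GBP2 had 0.71 (SE 0.52, edgeR adjusted p = 0.615). Lack of overlap was not counted over all genes.

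The median on day 7 rested on single hearts. Without naive day 7 replicate 3 it was 1.15, and 30 of the 33 fold changes were above 0, with 6 members at an unadjusted p under 0.05 and 0 called by edgeR. Without MI day 7 replicate 2 it was -0.14, as it was without naive day 7 replicate 2. Leaving out MI day 7 replicate 1 or naive day 7 replicate 1 gave 0.09 and 0.02, and leaving out MI day 7 replicate 3 gave 0.53.

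On day 14, 0 of 33 members were called by edgeR's quasi-likelihood test, beside 0% of all genes, and 0 had an unadjusted p under 0.05. DESeq2 and voom called 0, with 0 and 1 at an unadjusted p under 0.05. Fold changes were above 0 for 28 members and below 0 for 5, and their median was 0.40, against -0.01 over all genes. EPSTI1, an interferon-induced gene of epithelial and stromal cells, was at 11.6, 18.4 and 14.5 CPM in MI hearts and at 9.18, 7.62 and 1.89 CPM in naive hearts. These groups did not overlap, and the log2 fold change was 1.25 (SE 0.75, interval -0.33 to 2.82, edgeR adjusted p = 0.999). Lack of overlap was not counted over all genes. USP18 had 1.10 (SE 0.66) and GBP2 0.86 (SE 0.52), with the same edgeR adjusted p of 0.999. The median was 0.05 without MI day 14 replicate 2, 0.71 without MI day 14 replicate 3 and 0.83 without naive day 14 replicate 1. For GBP2 the fold change was -0.11 without MI day 14 replicate 2.

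On day 28, 0 of 33 members were called by edgeR's quasi-likelihood test while 6.86% of all genes were (4.47% higher and 2.38% lower in MI hearts), and 2 members had an unadjusted p under 0.05. DESeq2 and voom called 0 members, with 2 and 0 at an unadjusted p under 0.05, while they called 2205 and 46 of all genes. Fold changes were above 0 for 24 members and below 0 for 9, with a median of 0.32 beside 0.00 for all genes. IRF1 was at 22.5 and 27.9 CPM in MI hearts and 15.2, 11.4 and 6.09 CPM in naive hearts. The groups did not overlap, and the log2 fold change was 1.21 (SE 0.50, interval 0.14 to 2.27, edgeR adjusted p = 0.136). STAT2 was at 11.99 and 19.3 CPM in MI hearts and 9.89, 7.33 and 9.87 CPM in naive hearts, again without overlap. Its log2 fold change was 0.79 (SE 0.37, interval 0.00 to 1.58, edgeR adjusted p = 0.183), and that of BST2 was 1.00 (SE 0.56, edgeR adjusted p = 0.267).

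Here too single hearts set the median. It was -0.06 without naive day 28 replicate 3, 0.08 without MI day 28 replicate 2, 0.53 without naive day 28 replicate 2 and 0.59 without naive day 28 replicate 1. The first of these is the heart with the lowest macrophage marker sum and the second the one with the highest. On this day 6 of the 11 macrophage markers were called higher in MI hearts by edgeR, beside 4.47% of all genes. Their sums were 289 and 3083 CPM in MI hearts and 326, 345 and 64.3 CPM in naive hearts. MI day 28 replicate 1 thus lay below naive day 28 replicates 1 and 2. The part of macrophages in the members' values was not tested.

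**Figure D3:**
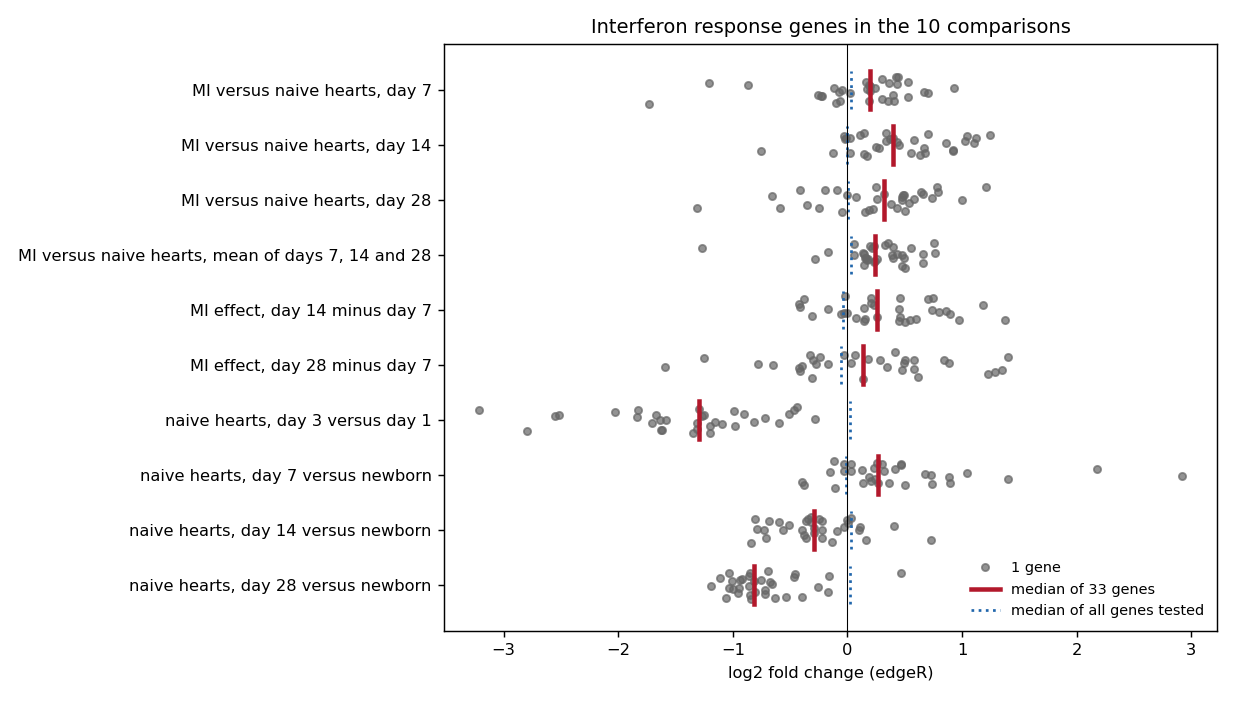
Log2 fold changes of the 33 tested members (grey points) in the 10 comparisons, with the members' median in red and the median of all genes tested as a blue dotted line. All 33 points of day 3 against day 1 lie below 0, while the other comparisons have points on both sides of 0 and no point was called.

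Averaged over days 7, 14 and 28, MI against naive hearts gave 0 of 33 members called by edgeR, beside 4.43% of all genes (2.36% higher and 2.07% lower), and 2 members at an unadjusted p under 0.05. DESeq2 and voom called 0, with 3 and 2 at an unadjusted p under 0.05, while they called 1639 and 640 of all genes. Fold changes were above 0 for 30 members and below 0 for 3, with a median of 0.24 against 0.03 over all genes. That median ranged from 0.15 to 0.53 as each library was left out, the latter without naive day 7 replicate 3. It was 0.38 without MI day 7 replicate 3 or MI day 28 replicate 1, 0.37 without naive day 14 replicate 1, and 0.15 without MI day 28, MI day 14 or MI day 7 replicate 2 or naive day 28 replicate 3. The fold change of GBP2 was 0.77 on the log2 scale (SE 0.31, edgeR adjusted p = 0.155), STAT2 0.43 (SE 0.20, edgeR adjusted p = 0.212) and IFI6 -1.26 (SE 0.60, edgeR adjusted p = 0.220).

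Whether the difference between MI and naive hearts itself differed between ages was tested as an interaction. For day 14 against day 7, 0 of 33 members were called by edgeR (0.00651% of all genes), 0 had an unadjusted p under 0.05, and the same counts were 0 by DESeq2 and voom. The largest member statistics were STAT2 at 0.60 (SE 0.48), BST2 at 0.90 (SE 0.72) and B2M at 0.75 (SE 0.66), with edgeR adjusted p from 0.833 to 0.848. For day 28 against day 7, 0 of 33 were called by edgeR (0.013% of all genes), 0 had an unadjusted p under 0.05, and DESeq2 and voom called 0, with 2 and 0 at an unadjusted p under 0.05. B2M had a difference of 1.35 (SE 0.70, edgeR adjusted p = 0.304), IRF1 1.29 (SE 0.68, edgeR adjusted p = 0.315) and STAT2 0.84 (SE 0.51, edgeR adjusted p = 0.371). Both interactions use the day 7 groups, so their values are not independent of each other.

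The newborn days were compared next, with 2 hearts each. On day 3 against day 1 the log2 fold changes of all 33 members were below 0, from -3.21 to -0.29 with a median of -1.30, while the median of all genes was 0.03. No member was called: 0 of 33 by edgeR, beside 0% of all genes, with 7 at an unadjusted p under 0.05, and 0 by DESeq2 and voom, with 15 and 4. The log2 fold change was -2.55 for MX1 (SE 1.00, interval -4.67 to -0.43, edgeR adjusted p = 0.965), from 87.1 ± 57.8 CPM on day 1 to 14.9 ± 11.9 CPM on day 3 (SD, n = 2 each). IFIT1, at 69.1 and 115 CPM on day 1 and 22.9 and 33.6 CPM on day 3, had -1.71 (SE 0.67, edgeR adjusted p = 0.965). IFIT5, at 39.6 and 67.7 against 24.6 and 32.9 CPM, had -0.90 (SE 0.35, edgeR adjusted p = 0.965). For these 3 members, named for their small p, the days did not overlap. The share of all genes without overlap between 2 and 2 hearts was not counted. The 5 endothelial markers also had log2 fold changes below 0, with a median of -0.65 and 2 at an unadjusted p under 0.05, and none was called by edgeR. They summed to 1686 and 1119 CPM on day 1 and 775 and 859 CPM on day 3. The median log2 fold changes were -0.81 for 5 fibroblast, -0.73 for 11 macrophage, -0.96 for 5 plasmacytoid dendritic cell and -0.09 for 5 cardiomyocyte markers. Lymphocyte marker sums were 11.6 and 21.7 CPM on day 1 and 4.2 and 19.0 CPM on day 3. Erythroid sums were 378 and 79.6 against 174 and 229 CPM. Both overlapped between the days, while neutrophil sums (3.52 and 1.88 against 1.68 and 0.682 CPM) did not. Of the plasmacytoid dendritic cell markers, TLR7 had 130 and SPIB 222 reads over all 21 libraries. That list summed to 135 and 132 CPM on day 1 and 90.2 and 106 CPM on day 3. The part of all these cell types in the members' values was not tested. The median of the members was -0.74 without naive day 1 replicate 2, the higher heart, and -1.71 without naive day 1 replicate 1.

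Naive hearts of days 7, 14 and 28 were each compared with the newborn hearts, taken as the mean of days 1 and 3, so that the 3 comparisons share 4 libraries. On day 7, 0 of 33 members were called by edgeR (0% of all genes), with 1 at an unadjusted p under 0.05, and 0 by DESeq2 and voom, with 3 and 5. Fold changes were above 0 for 26 members and below 0 for 7, with a median of 0.27 beside -0.01 for all genes. IFI6 had 2.18 (SE 0.92, interval 0.23 to 4.13, edgeR adjusted p = 0.880), and its 3 day 7 hearts all lay above the 4 newborn ones. Such separation was not counted over all genes. B2M had 0.90 (SE 0.43, edgeR adjusted p = 0.902) and IFI44L 1.04 (SE 0.51, edgeR adjusted p = 0.907). Without naive day 7 replicate 3 the median was -0.53, without naive day 7 replicate 1 or 2 it was 0.53 and 0.64, and with a newborn heart left out it ran from 0.11 to 0.63.

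On day 14, 0 of 33 members were called by edgeR (0% of all genes), 0 had an unadjusted p under 0.05, and DESeq2 and voom called 0, with 0 and 2. The median was -0.29, with 7 fold changes above and 26 below 0. BST2 had -0.84 (SE 0.49), MX2 -0.81 (SE 0.53) and USP18 -0.79 (SE 0.62), each with an edgeR adjusted p of 1.00. Leaving out single hearts moved the median between -0.73, without naive day 14 replicate 1, and -0.02, without naive day 1 replicate 2.

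On day 28, 0 of 33 members were called by edgeR (0% of all genes), with 2 at an unadjusted p under 0.05, and 0 by DESeq2 and voom, with 4 and 3. Fold changes were below 0 for 32 members and above 0 for 1, with a median of -0.82 beside 0.02 for all genes. IRF1 had -0.95 (SE 0.44, interval -1.88 to -0.03), STAT2 -0.69 (SE 0.32, interval -1.37 to -0.01) and BST2 -1.03 (SE 0.49, interval -2.07 to 0.01), each with an edgeR adjusted p of 1.00. For IRF1 and STAT2 the 3 day 28 hearts all lay below the 4 newborn ones, a separation that was not counted over all genes. The median was -0.48 without naive day 28 replicate 3 and -0.52 without naive day 1 replicate 2.

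Other genes of the pathway came from lists of 88 symbols, of which 73 were found and 68 tested. Transcripts of the interferons themselves were near or at the limit of detection: over all 21 libraries IFNB1 had 1 read, IFNK 3, IFNG 36 and IFNE 0. The receptor chain IFNAR1 was present in every heart at 35.2 to 83.4 CPM, and none of the 5 ligand and receptor genes tested was called by edgeR in any of the MI comparisons by day. CXCL10, a chemokine induced by interferon gamma, was highest in MI day 14 replicate 2 at 43.5 CPM and lowest in naive day 28 replicate 3 at 0.271 CPM. These hearts were also at the high and low ends for the members.

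Over 23 further interferon-stimulated genes the same was counted. MI day 14 replicate 2 was the highest of its group for 23 of them (all genes 33.2%) and naive day 7 replicate 3 for 18 (24.9%). MI day 28 replicate 2 was the higher of 2 for 22 (51.5%) and naive day 1 replicate 2 for 19 (50.3%). Naive day 28 replicate 3 was the lowest of its group for 19 (40.8%). The highest of all 21 libraries was MI day 14 replicate 2 for 9 of them (39.1%, all genes 3.72%) and MI day 7 replicate 2 for 6 (26.1%, all genes 1.56%). Naive day 7 replicate 3 and naive day 1 replicate 2 were so for 3 and 2 (13.0% and 8.70%, all genes 1.99% and 3.84%), smaller shares than among the members. Over these 23 genes the within-group standard deviation had a median of 0.64 log2 units, between the members and all genes.

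Pathway genes were called by edgeR on day 28 and for the mean of the days. On day 28, when 4.47% of all genes rose and 2.38% fell, 3 of 19 signalling genes rose, and of 10 negative regulators 2 rose and 2 fell, while 0 of 11 genes of the MHC class I pathway and 0 of the 23 further interferon-stimulated genes were called. TLR8, an endosomal receptor for single-stranded RNA, was at 0.870 and 33.1 CPM in the MI hearts and 1.05, 0.572 and 0.169 CPM in the naive ones (log2 fold change 4.82, SE 1.06, edgeR adjusted p = 0.0223). Its adaptor MYD88 was at 16.8 and 65.5 against 15.0, 10.9 and 7.89 CPM (1.87, SE 0.44, edgeR adjusted p = 0.0285). The factor IRF5 was at 7.61 and 26.8 against 4.67, 4.88 and 1.19 CPM (2.27, SE 0.60, edgeR adjusted p = 0.0373). PTPN6, the phosphatase SHP-1 of blood cells, was at 6.31 and 87.2 against 10.7, 9.79 and 2.95 CPM (2.58, SE 0.73, edgeR adjusted p = 0.0442). In each of these 4 genes the high value was that of MI day 28 replicate 2, the heart with a macrophage marker sum of 3083 CPM.

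Without that heart the log2 fold changes of TLR8, MYD88, IRF5 and PTPN6 were 0.56, 0.60, 1.12 and -0.28, and none of the 4 was called by edgeR. All 4 calls were also lost without naive day 28 replicate 2 or 3, and those of IRF5 and PTPN6 without naive day 28 replicate 1. With voom, with only the compared groups or with a term for the second set, all 4 were lost as well. RNF125, a ubiquitin ligase that limits RIG-I signalling, rose, with a log2 change of 0.74 (SE 0.22, edgeR adjusted p = 0.0499). PTPN11 (SHP-2) fell by 0.89 on the log2 scale (SE 0.26, edgeR adjusted p = 0.0490) and NLRX1, a mitochondrial inhibitor of RNA sensing, by 1.41 (SE 0.40, edgeR adjusted p = 0.0470). RNF125, PTPN11 and NLRX1 were not called with voom, without the filter on low counts, with only the compared groups or with a term for the second set. These 3 calls were lost when any 1 of the 5 hearts of the day was left out. For the mean of the days NLRX1 fell by 0.94 on the log2 scale (SE 0.21, edgeR adjusted p = 0.0249) and TLR8 rose by 2.20 on that scale (SE 0.54, edgeR adjusted p = 0.0360), the latter call being lost under 14 of 24 alternatives, among them without MI day 28 replicate 2 (0.79). The NLRX1 call was lost under 3 of the 24, those without MI day 28 replicate 1, without naive day 14 replicate 2 and without the second set.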

How the data were processed

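The authors deposited whole-number read counts per gene for 21 pig heart libraries, not normalized. Per the submitters' processing notes, Trim Galore, STAR 2.5.2, HTSeq 0.6.1, DESeq2 and the build Sscrofa11.1 were used, with annotation release, strand setting and treatment of shared reads not given in the sources used here. From these counts, edgeR 4.0.16 (R 4.3.3) was run with TMM factors, the filter on low counts over the 8 groups, and a robust quasi-likelihood fit with 1 mean per group over all 21 libraries (13 residual degrees of freedom). P-values are two-sided and adjusted by Benjamini-Hochberg over 15359 genes, with calls under 0.05. In each comparison the 3 members with the smallest p were named, since none was called, besides the 6 widest and 6 narrowest in range, the highest per kilobase and called pathway genes. Overlap between groups was read for listed genes only, and the share without overlap over all genes was not counted. Alternatives were DESeq2 1.42.0, limma 3.58.1 (voom with sample quality weights), DESeq2 size factors, no filter, only the compared groups, the second set as a term or left out, and each library left out. The fit was also run on simulated counts in which genes varied independently, unlike the members here, and nothing above rests on that run. Figures used matplotlib 3.10.9. The members and gene lists were chosen with earlier results of these data known. At 37002909 to 95559841 counts per library, counting error was small beside the spread between pigs for all members but OASL, IRF7 and IRF9.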

Additional observations from a re-analysis of the deposited data

How the results depend on the processing

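The count of members called was 0 in all 10 comparisons under every alternative run (152 values), and the lowest adjusted p of any member was 0.0728 (DESeq2, MI against naive on day 28). No paired analysis was possible because the labels give no number that pairs pigs across groups, and replicate numbers follow accession order. The named fold changes that turned sign were GBP2 on day 14, which ranged from -0.11 without MI day 14 replicate 2 to 1.32 without naive day 14 replicate 1, and PTPN6 on day 28, which ranged from -0.28 without MI day 28 replicate 2 to 3.51 without MI day 28 replicate 1 and was -0.10 without the second set, in each case with fewer samples, and the cause was not tested. Counts over all genes moved far more. On day 28 they went from 1053 to 2205 with DESeq2, 46 with voom, 2 with only the compared groups and 17 to 1162 as each library was left out, the lowest without naive day 28 replicate 3. Leaving out naive day 28 replicate 1 or 2 gave 314 and 169, and a term for the second set 646. On day 7 they went from 0 to 263 with DESeq2 and 2040 with voom. On day 14 they went from 0 to 14 with DESeq2. For the mean of the days 681 became 1639 with DESeq2, 442 with only the compared groups, 415 without the second set and 186 to 1082 as each library was left out. For the interaction of days 28 and 7 the count of 2 became 695 with DESeq2 and 528 without MI day 28 replicate 1, and for days 14 and 7 the count of 1 became 33 with DESeq2. Comparisons among naive hearts stayed between 0 and 10. Groups of 2 or 3 pigs with a wide spread limit what could be called, and leaving out 1 pig of 2 assumes that the lone heart varies like the others.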
